A study of Mus musculus with 23 samples.

Results

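AMP-activated protein kinase (AMPK) is the energy sensor of the muscle cell, and the genes described here were its subunits and the kinases that switch it on. They were the catalytic subunit genes Prkaa1 and Prkaa2, the scaffold subunit genes Prkab1 and Prkab2, the regulatory subunit genes Prkag1, Prkag2 and Prkag3, and the upstream kinase genes Stk11 (LKB1) and Camkk2. All probes that the annotation of the array gives to these 9 genes were taken, which came to 14 of the 45281 probes on the array. The array held a probe for 19057 genes in all. Prkaa1, Prkab1, Prkab2, Prkag1, Prkag2 and Stk11 had 1 probe each, Prkaa2 and Prkag3 had 2, and Camkk2 had 4.

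RNA from gastrocnemius muscle of 23 mice was hybridised to Illumina MouseWG-6 v2.0 arrays. The Ts3Yah mice (6 arrays, called Ts2Yah Dup in the labels) carried a tandem duplication of the Hspa13 to App interval of mouse chromosome 16, and were set against 5 diploid littermates. The Ms3Yah mice (6 arrays) carried a deletion of the same interval and were set against 6 diploid littermates of their own. All mice were given as strain C57BL6/J in the labels. According to the methods of the study the rearrangements were made in embryonic stem cells with 129S5 vectors, each line was backcrossed to C57BL/6J, App was not functionally duplicated, and the mice were adult littermates. The labels give neither age nor sex, and no treatment was given. By the methods, the controls were matched to the aneuploid mice in age and gender. None of the 9 genes lies on chromosome 16. Each array was a mouse of its own, and no mouse was shared between groups.

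AMPK is a complex of a catalytic, a scaffold and a regulatory subunit. The regulatory subunit binds AMP, ADP and ATP, so that a fall in energy charge favours phosphorylation of the catalytic subunit by LKB1 or, after a calcium signal, by CaMKK2. The active kinase phosphorylates enzymes of fat and glucose metabolism such as acetyl-CoA carboxylase. Fast skeletal muscle has, among others, a complex of the products of Prkaa2, Prkab2 and Prkag3, and Prkag3 is known for its restriction to fast glycolytic muscle.

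The arrays carried a muscle profile. All 9 skeletal muscle markers and all 9 fast glycolytic fibre markers were detected on every array, and the summed signal of the muscle markers lay between 264548 and 293519. The 8 slow fibre markers were also detected on every array, with a sum that ran from 29740.4 to 128188 among the mice. The adipocyte markers (6 with a probe) summed to 762 to 2419 on the Ts3Yah side and to 941 to 8312 on the Ms3Yah side. Xist, the RNA of the inactive X chromosome, was low on 11 arrays and high on 12, with no array between. High Xist was found in 4 of 6 Ts3Yah mice, 2 of 5 of their diploid littermates, and 3 of 6 mice in each group of the Ms3Yah line. Signals below are quantile-normalised over the 23 arrays, on the linear scale of the scanner unless log2 is named. A probe counted as detected where its detection p was under 0.05. The array median of the raw signal was 84.7 to 101.5, and 16945 to 18669 probes were detected on an array. In whole muscle, fewer cells of a type and less RNA per cell cannot be told apart.

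No probe of the 9 genes differed between either aneuploid group and its littermates after adjustment over all probes. In limma with Benjamini-Hochberg adjustment, 0 of 14 passed in Ts3Yah, where 0.00455% of 43917 expressed probes did, and 0 of 14 in Ms3Yah, where 0.018% of 44363 did. At an unadjusted p under 0.05 there were 2 of 14 in Ts3Yah, against 5.56% of all probes, and 1 of 14 in Ms3Yah, against 5.16%. Counts this small cannot be read apart from the background. The median log2 ratio over the 14 probes was 0.03 in Ts3Yah and -0.06 in Ms3Yah, beside -0.00033 and -2.9e-05 over all probes. For no probe did an aneuploid group lie wholly apart from its littermates, as was the case for 0.537% of probes in Ts3Yah and 0.284% in Ms3Yah. The change in Ts3Yah was also set against the change in Ms3Yah. None of the 14 passed this test in limma after adjustment (0.0266% of 45139 probes did), and none reached an unadjusted p under 0.05 (5.71% did).

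**Figure D1:**
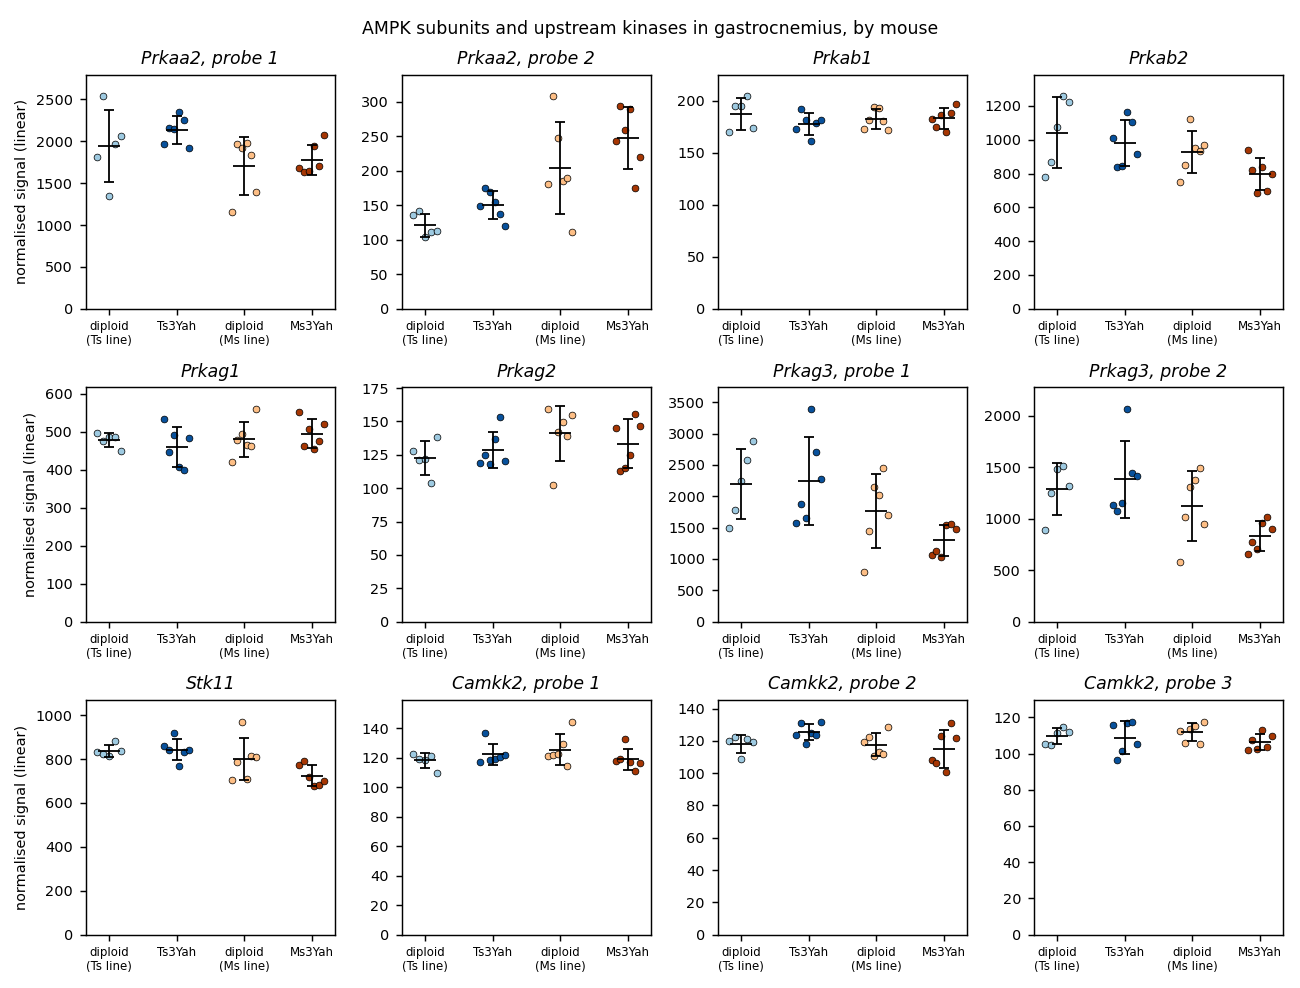
Normalised signal on a linear axis (one point per mouse) of the 12 probes detected on at least 22 of the 23 arrays, with the mean and SD of each of the 4 groups; probes of a gene are numbered from the brightest. Prkag3 probe 1 runs from 794 to 3397 over all mice, and probe 2 of Prkaa2 is higher in the Ms3Yah line than in the Ts3Yah line.

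**Figure D2:**
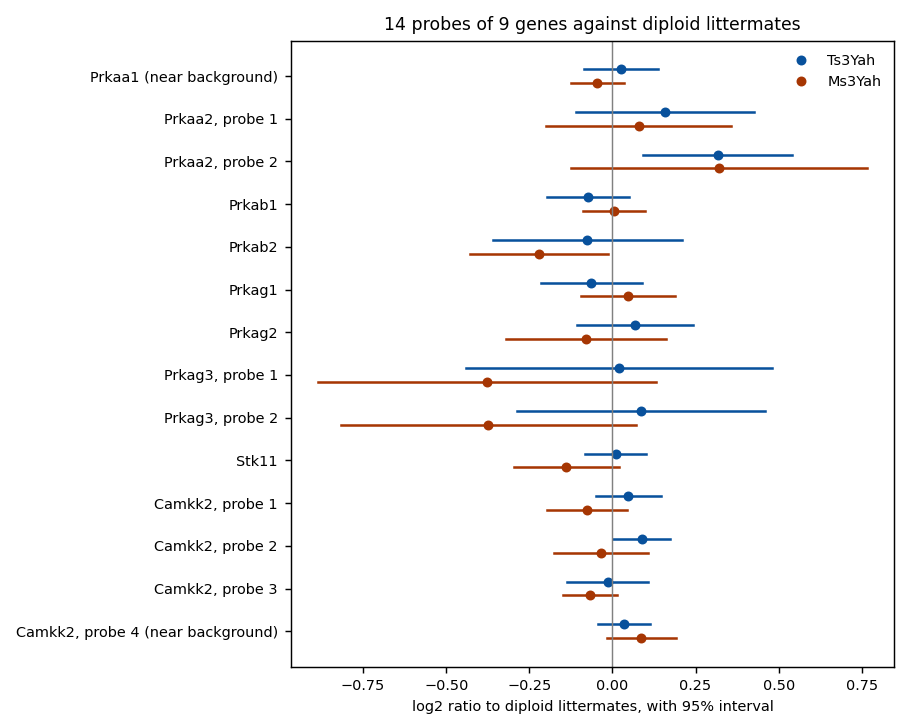
Log2 ratio, as the difference of mean log2 signals between Ts3Yah or Ms3Yah and diploid littermates, for each of the 14 probes, with the 95% interval from limma. The interval excludes 0 for probe 2 of Prkaa2 and probe 2 of Camkk2 in Ts3Yah and for Prkab2 in Ms3Yah, before any adjustment.

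Prkaa2 encodes the catalytic subunit that predominates in muscle. Its bright probe (ILMN_2803138) was well above background on every array. Its signal was 1345, 1811, 1964, 2067 and 2543 in the diploid littermates of Ts3Yah, and ran from 1915 to 2351 with a median of 2153 in Ts3Yah. The Ts3Yah values thus lay inside the range of their littermates. The means were 2132 ± 165 (SD, n = 6) and 1946 ± 433 (SD, n = 5), a log2 ratio of 0.16 with a 95% interval from -0.11 to 0.43 (limma, adjusted p = 0.942). In Ms3Yah the bright probe ran from 1633 to 2071 with a median of 1691, and in the diploid littermates from 1162 to 1986 with a median of 1878. The log2 ratio was 0.08, with an interval from -0.20 to 0.36 (limma, adjusted p = 0.997).

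The dim Prkaa2 probe (ILMN_1227113) was detected on all 23 arrays but close to the background level. It read 104, 112, 112, 136 and 142 in the diploid littermates of Ts3Yah, and 121 to 176 with a median of 151 in Ts3Yah. Of the 6 Ts3Yah mice, 4 lay above the highest littermate. The log2 ratio was 0.32 (SE 0.10, interval from 0.09 to 0.54), or 1.25-fold between the means, with an adjusted p of 0.835 in limma. The study named this probe from the same arrays, so the value is a description and no independent evidence. In Ms3Yah, on arrays where the study did not name it, the dim probe ran from 175 to 294 with a median of 252, and in the littermates from 112 to 309 with a median of 188. The log2 ratio there was 0.32 as well, but with an SE of 0.21 and an interval from -0.12 to 0.77 (limma, adjusted p = 0.987). The lower and the higher copy number of the interval thus went with the same point estimate for this probe. The difference between these changes was -0.0041 log2 units with an interval from -0.52 to 0.52.

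The bright and the dim probe were then compared within each mouse, as the log2 signal of the dim minus that of the bright probe, which asks whether both report the same change. Levels of different probes are not comparable, so only differences between groups are read from it. The dim probe came to 6.14 to 8.13% of the bright probe in Ts3Yah (median 7.06%) and to 5.44 to 7.76% in the diploid littermates (median 5.70%). The groups overlapped, and the difference in log2 was 0.16 (SE 0.13), with a two-sided exact permutation p of 0.242. In Ms3Yah the share was 10.3 to 18.0% (median 14.7%) and in the littermates 8.00 to 15.7% (median 11.7%), a log2 difference of 0.24 (SE 0.21, exact permutation p = 0.266). Neither comparison showed that the probes differ in their response to genotype. This rests on signals without background subtraction. After neqc, which subtracts the background that makes up most of a dim signal, the Ts3Yah difference was 0.56 with an exact permutation p of 0.0368, and the deposited normalised values, floored at 1, gave 0.87 with p = 0.0303 in the same exact test. In the Ms3Yah line these settings gave 0.47 and 0.60, with exact permutation p of 0.214 and 0.208.

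The larger difference in the dim probe was between the lines. Both groups of the Ms3Yah line had a higher median than both groups of the Ts3Yah line, while the bright probe was not higher there. Between the diploid mice alone, the dim probe was lower in the Ts3Yah line by a log2 ratio of -0.69 (SE 0.18, limma, adjusted p = 0.0406), and the bright probe differed by 0.18 (limma, adjusted p = 0.552). The dim probe was the only one of the 14 to pass this test, which 2.7% of all probes passed. No other member reached an unadjusted p under 0.05 (16.6% of all probes), and for none of the 14 were the diploid groups wholly apart (2.72% of all probes). The dim minus bright value was lower in the diploid littermates of Ts3Yah by a log2 difference of -0.88 (SE 0.20), with no overlap between the groups and a two-sided exact permutation p of 0.00433, where the smallest that these group sizes allow is 0.00216. This comparison was added after the values were seen. Line, litter and hybridisation cannot be told apart here, and the adjusted p of the dim probe was above 0.05 in limma when any of 8 of the diploid mice was left out (37040, 37041, 37094, 37145, 37146, 34723, 34923 or 34925, 0.0550 to 0.102), under median scaling (0.0969) and with the deposited normalised values (0.0670). Cell type markers also differed between the diploid groups. All 6 adipocyte markers were lower in the diploid littermates of Ts3Yah, with a median log2 ratio of -1.04 and 0 of 6 past the adjusted threshold in limma (5 at an unadjusted p under 0.05, beside 18.8% of all genes). All 6 macrophage and leukocyte markers were lower as well (median -0.19, 2 at that level). Of 4 nerve and Schwann cell markers 3 were higher (median 0.32, 2 at that level and 1 past adjustment), and of 6 endothelial markers 4 were higher (median 0.12, 1 past adjustment). The part of these cell types in the Prkaa2 difference was not tested.

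**Figure D3:**
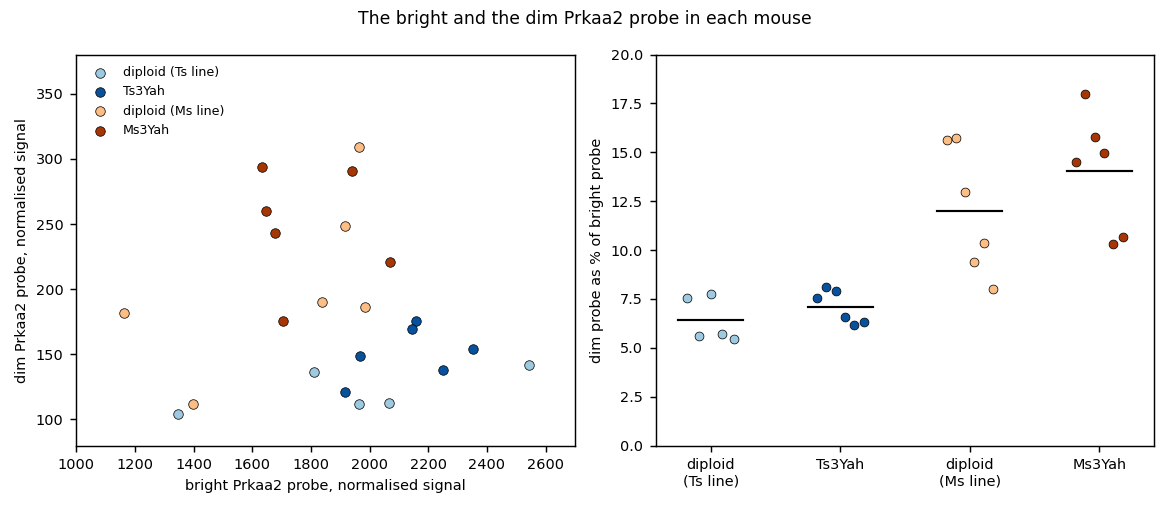
Left, normalised signal of the dim against the bright Prkaa2 probe, 1 point per mouse; right, the dim probe as a percentage of the bright probe, with the group mean as a line. The Ts3Yah and diploid mice of that line lie between 5.44 and 8.13%, and the Ms3Yah line between 8.00 and 18.0%.

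Prkaa1, the catalytic subunit gene used in most other tissues, was at background. Its single probe was detected on 6 of 23 arrays and ran from 85.1 to 106.9 over all mice, so that no change could be measured at this signal. The group means lay between 91.5 and 96.6.

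The promoter window of Prkaa2 (300 bases around the annotated start, RefSeq, GRCm38.p6, chr4:105109849-105110148, minus strand) is shown because both Prkaa2 probes were compared above. Those of Prkab2 (chr3:97657962-97658261, plus strand) and Prkag3 (chr1:74748906-74749205, minus strand) are shown too, since their products form 1 of the complexes of fast muscle with that of Prkaa2. Capitals mark the GC box letters GGGCGG and the E-box letters CANNTG, on either strand.
Prkaa2: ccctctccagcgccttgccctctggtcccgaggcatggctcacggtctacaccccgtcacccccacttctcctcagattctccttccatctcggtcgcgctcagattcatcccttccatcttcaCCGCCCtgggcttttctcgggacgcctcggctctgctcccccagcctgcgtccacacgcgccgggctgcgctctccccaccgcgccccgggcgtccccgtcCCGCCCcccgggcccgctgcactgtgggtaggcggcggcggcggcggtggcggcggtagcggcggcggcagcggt
Prkab2: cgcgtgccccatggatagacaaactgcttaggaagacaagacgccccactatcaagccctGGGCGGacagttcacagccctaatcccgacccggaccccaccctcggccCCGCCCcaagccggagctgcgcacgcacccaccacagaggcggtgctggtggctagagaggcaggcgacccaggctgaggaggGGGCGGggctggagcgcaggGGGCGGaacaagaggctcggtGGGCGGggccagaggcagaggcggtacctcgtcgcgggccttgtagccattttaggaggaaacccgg
Prkag3: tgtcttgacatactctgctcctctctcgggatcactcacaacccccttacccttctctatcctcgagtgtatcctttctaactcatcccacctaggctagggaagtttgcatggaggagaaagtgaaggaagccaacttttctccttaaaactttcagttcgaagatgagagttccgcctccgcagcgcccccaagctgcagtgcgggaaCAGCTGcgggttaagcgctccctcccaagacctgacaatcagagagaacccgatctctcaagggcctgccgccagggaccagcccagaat
The windows differ in base composition. That of Prkaa2 held 35 CpG and 2 GC boxes at 72.7% GC, and that of Prkab2 held 23 CpG and 5 GC boxes at 68% GC. That of Prkag3 held 11 CpG, no GC box and 1 E-box at 54% GC. Over all 32851 mouse windows of this length the median was 7 CpG and 52.7% GC, 35.7% held the GC box and 72.3% held the E-box. Among the 11 windows of the 9 genes, 8 held the GC box, 6 the E-box and 0 the letters TATAAA, which 13.6% of all windows held. A match of letters is a description and no binding site.

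Prkab2 encodes the scaffold subunit of muscle, and Prkab1 that of liver and many other tissues. Prkab2 read 780.0, 870.1, 1077, 1224 and 1259.6 in the diploid littermates of Ts3Yah and 839 to 1166 with a median of 964 in Ts3Yah. The groups overlapped throughout, with a log2 ratio of -0.08 (interval from -0.36 to 0.21, limma, adjusted p = 0.975). In Ms3Yah, Prkab2 ran from 687 to 938 with a median of 809, and in the littermates from 751 to 1121 with a median of 942. The means were 796 ± 94.6 and 929 ± 124 (SD, n = 6 each), a log2 ratio of -0.22 (SE 0.10) or 0.856-fold, with an adjusted p of 0.968 in limma. Of the 6 Ms3Yah mice, 2 lay below the lowest littermate, and the other 4 lay inside the range of the littermates. Prkab1 varied little, from 161 to 205 over all mice, with log2 ratios of -0.07 in Ts3Yah and 0.00 in Ms3Yah.

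Prkag3, the regulatory subunit gene of fast glycolytic fibres, varied between mice of a group, with a coefficient of variation within groups of 30.9% for its brighter probe (ILMN_2468772) and 25.9% for the other (ILMN_2702917). Stk11 had 7.49% and Prkag1 8.52%. These are on signals without background subtraction, which lowers the coefficient of dim probes, so that the genes are not ranked by it. The brighter probe read 1494, 1786, 2239.7, 2577 and 2879.8 in the diploid littermates of Ts3Yah, and ran from 1574 to 3397 with a median of 2074 in Ts3Yah. These groups overlapped over most of their range, with a log2 ratio of 0.02 and an interval from -0.44 to 0.48 (limma, adjusted p = 0.996). In Ms3Yah it ran from 1029 to 1552 with a median of 1300.3, and in the littermates from 794 to 2445 with a median of 1864. The log2 ratio was -0.38 (SE 0.23, interval from -0.89 to 0.13, limma, adjusted p = 0.987), and the second probe gave -0.37 (SE 0.21, limma, adjusted p = 0.980).

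A single diploid mouse weighed on the Ms3Yah values. Mouse 37094 was the lowest of its group on 6 of 14 probes, among them the bright Prkaa2 probe (1162), Prkab2 (751) and both Prkag3 probes (794 and 576). It had the highest adipocyte sum of all 23 mice (8312). The next highest sum was that of diploid mouse 37075 (8070), which read 1397, 970, 1706 and 945 on the same probes. Without mouse 37094, the Prkag3 log2 ratios in Ms3Yah were -0.59 (SE 0.15) and -0.55 (SE 0.14), Prkab2 had -0.28 (SE 0.09) and Stk11 -0.17 (SE 0.07). These 4 of 14 probes reached an unadjusted p under 0.05, as 5.45% of all probes did in that fit, and none passed adjustment in limma (lowest adjusted p = 0.604). The mouse was picked because it was lowest on the most of the 14 probes, and it was lowest of its group on each of these 4. Its removal had to lower their ratios, so the count is a description and is not to be read against the share of all probes. The bright Prkaa2 probe was then at -0.03.

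The 2 Prkag3 probes reported the same variation. With each group centred on its mean, their log2 signals over 23 mice correlated with a Pearson r of 0.93 and a Spearman rho of 0.89 (permutation p = 1e-05 for each, the smallest that 100000 permutations give, and 8e-05 after Benjamini-Hochberg adjustment over the 8 probe pairs of the 3 genes). Without the 2 most distant mice r was 0.88, and within the lines it was 0.88 (n = 11) and 0.97 (n = 12). The 2 Prkaa2 probes had r = 0.45 and rho = 0.39 (permutation p = 0.0819 and 0.0927, adjusted 0.247 and 0.371), with r = 0.49 without the 2 most distant mice and 0.54 and 0.45 within the lines. The 6 pairs of Camkk2 probes had r between -0.44 and 0.30, and none passed. Pairs of probes on 1 array share its hybridisation.

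Between the aneuploid groups the Prkag3 signals did not overlap. All 6 Ts3Yah mice lay above all 6 Ms3Yah mice on both probes. Of all probes, taken singly, 2.16% had these groups wholly apart in either direction. The log2 differences were 0.76 and 0.71, with adjusted p of 0.0804 and 0.0539 in limma, where 3.11% of all probes passed. Stk11 passed at 0.22 (limma, adjusted p = 0.0481), with 5 of 6 Ts3Yah mice above the highest Ms3Yah mouse, and the dim Prkaa2 probe passed in the other direction, at -0.70 (limma, adjusted p = 0.0279). Neither call held in all of the alternatives, which were added for this comparison after the values were seen. Stk11 missed the threshold in limma when any of 17 of the 23 mice was left out (all but 34558, 37038, 37040, 37094, 37146 and 37148, with adjusted p up to 0.103), after neqc (0.0623), under median scaling (0.256) and with the deposited normalised values (0.220). The dim Prkaa2 probe missed it without any of 6 mice (34498, 34661, 34725, 37039, 37148 or 37448, adjusted p up to 0.0707) and in these settings (limma, adjusted p = 0.0545, 0.0717 and 0.131). Without diploid mouse 37094 both Prkag3 probes passed in limma (adjusted p = 0.0293 and 0.0179), and the second probe also did without diploid mouse 34561 (0.0465) or 37041 (0.0493). Set against the same Ms3Yah mice, the diploid littermates of Ts3Yah differed by 0.74 and 0.62 in Prkag3, 0.21 in Stk11 and -1.02 in the dim Prkaa2 probe. The diploid mice of the lines differed in Prkag3 by 0.37 and 0.25 (limma, adjusted p = 0.498 and 0.611) and in Stk11 by 0.07 (limma, adjusted p = 0.620). Genotype and line thus cannot be told apart in the comparison of Ts3Yah with Ms3Yah.

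Prkag3 also moved with Xist. In a limma fit with the 4 groups and the Xist class of each array, Prkag3 was higher where Xist was low, by 0.61 log2 units (SE 0.12, adjusted p = 0.00333) for the brighter probe and 0.47 (SE 0.11, adjusted p = 0.0212) for the other. These 2 of 14 probes passed, beside 2.55% of all probes. In Ts3Yah the brighter probe read 2711 and 3397 on the 2 low arrays and 1574 to 2274 on the 4 high arrays. In their diploid littermates it read 2239.7 to 2879.8 on the low and 1494 to 1786 on the high arrays, and in Ms3Yah 1475 to 1552 on the low and 1029 to 1126 on the high arrays. The classes did not overlap in these 3 groups, whereas in the diploid mice of the Ms3Yah line they did (1706 to 2445 and 794 to 2153). The share of all probes whose Xist classes lie apart was not counted. Classes of 2 to 4 mice can lie apart by chance, so this is a description. Xist class was read from the arrays and is no group of the study, and there was no label of sex to set it against. The comparison by Xist class was added after the values were seen. Under median scaling the brighter probe gave 0.56 with an adjusted p of 0.0515 in limma. The second probe had an adjusted p of 0.146 in limma under median scaling, 0.0785 with the deposited normalised values, 0.0622 without Ts3Yah mouse 34558 and 0.0536 without diploid mouse 34561. Prkab2 was higher on the low-Xist arrays by 0.20 and the dim Prkaa2 probe lower by -0.32, neither past adjustment in limma (adjusted p = 0.230 and 0.161). Camkk2 probe 3 and Prkag2 were higher there by 0.087 and 0.15, neither past adjustment in limma (adjusted p = 0.151 and 0.362). Prkaa1, at background, read lower by -0.076 (limma, adjusted p = 0.222). With both Prkag3 probes these made 7 of 14 at an unadjusted p under 0.05 in limma. Prkag2 ranked last of the 7, and 11.0% of all probes ranked as high or higher. In the Ts3Yah line every low-Xist mouse had a higher Prkab2 signal (1077 to 1259.6) than every high-Xist mouse (780.0 to 1009.7). How many of all probes do so was not counted here either. The classes overlapped in Ms3Yah (694 to 837 on the low and 687 to 938 on the high arrays) and in its diploid littermates (935 to 970.5 and 751 to 1121).

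With the Xist class as a term, the Prkag3 log2 ratio was 0.20 in Ts3Yah (SE 0.11) and -0.38 in Ms3Yah (SE 0.18), and the second probe gave 0.22 (SE 0.11) and -0.37 (SE 0.17), the last of which reached an unadjusted p under 0.05. Adjusted p in limma were 0.856 to 0.913, so no genotype difference in Prkag3 passed with or without this term.

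**Figure D4:**
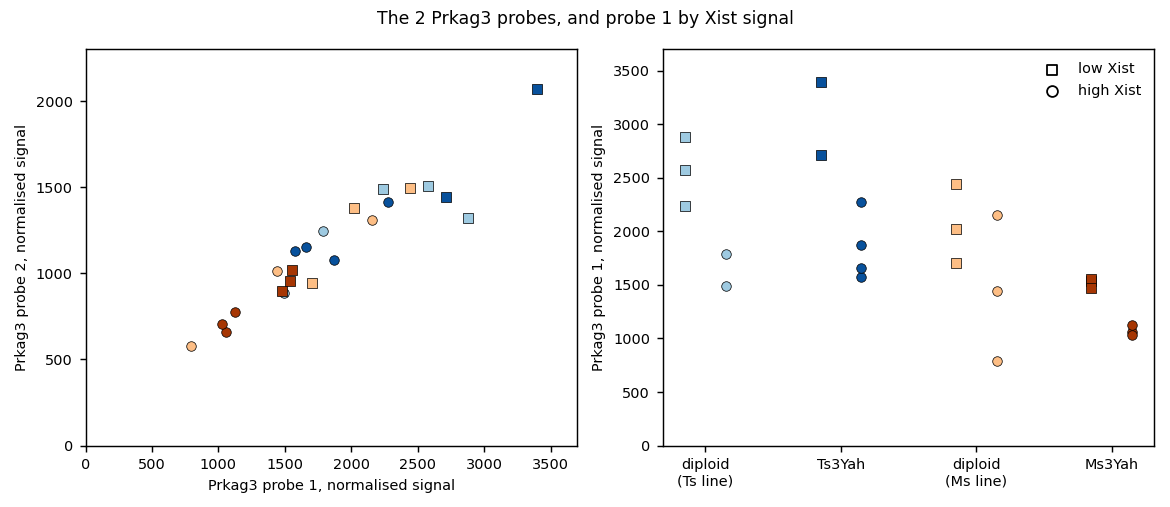
Left, normalised signal of Prkag3 probe 2 against probe 1; right, probe 1 by group, with arrays of low Xist as squares on the left of each pair and of high Xist as circles. Colours are blue for the Ts3Yah line and orange for the Ms3Yah line, darker for the aneuploid mice. The probes go together, and squares lie above circles in all groups but the diploid mice of the Ms3Yah line.

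The mice also differed in fibre and fat markers. Over 23 mice, with each group centred, the correlation of Prkab2 with the mean log2 signal of the adipocyte list was -0.54 (Pearson) and -0.55 (Spearman), with permutation p of 0.00670 and 0.00657 and adjusted p of 0.0402 and 0.0394 over the 6 relations computed (Prkaa2, Prkab2 and Prkag3, each with the slow fibre and adipocyte lists). It was -0.67 (n = 11) for Ts3Yah with its littermates and -0.62 (n = 12) for Ms3Yah with its own, and -0.47 without the 2 most distant mice. On low-Xist arrays alone it was -0.27 (n = 11), and on high-Xist arrays -0.66 (n = 12). Prkag3 had r of -0.46 with the slow fibre list and -0.41 with the adipocyte list (adjusted permutation p = 0.0948 for both, with rho of -0.50 and -0.41, adjusted permutation p = 0.0603 for both). Within the lines Prkag3 had -0.38 and -0.55 with the slow fibre list, and -0.59 and -0.39 with the adipocyte list, for Ts3Yah and Ms3Yah with their littermates. By Xist class the Prkag3 values differed. With the slow fibre list r was -0.52 on low-Xist arrays (n = 11) and 0.10 on high-Xist arrays (n = 12). With the adipocyte list it was -0.03 and -0.58. Prkaa2 had r of -0.07 and -0.33 with these lists, neither past adjustment. Its correlation with the adipocyte list had opposite signs within the lines, at 0.49 for Ts3Yah and -0.64 for Ms3Yah with their littermates. The relations were chosen after the values were seen, and signals of 1 array share its RNA.

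Prkag1 encodes the regulatory subunit found in most tissues, and Prkag2 one known for its role in the heart. Prkag1 ran from 400.3 to 561 over all mice, with group means of 461 to 496 and log2 ratios of -0.06 in Ts3Yah and 0.05 in Ms3Yah. Prkag2 was dim, from 102 to 160 over all mice, with log2 ratios of 0.07 and -0.08. Neither reached an unadjusted p under 0.05 in any comparison of genotypes. The promoter windows of Prkab1 and Prkag1 each held the letters CCGGAAG, the core to which the transcription factor encoded by the interval gene Gabpa is known to bind. They are shown, in the strand of the gene with these letters in capitals, since they were the only windows of the 9 genes to hold them (2 of 11, and 8.86% of all mouse windows).
Prkab1, chr5:116024447-116024476, minus strand: gctgggcccggCCGGAAGcggaagtggcta
Prkag1, chr15:98831555-98831584, minus strand: ctcagccaccgCCGGAAGggtgggttcccc
Their log2 ratios are those given above, and no binding was measured.

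Stk11 encodes LKB1, the main AMPK kinase of muscle. Its signal ran from 813 to 881 in the diploid littermates of Ts3Yah and from 767 to 920.1 in Ts3Yah, with a log2 ratio of 0.01 (interval from -0.08 to 0.10). In Ms3Yah it ran from 676 to 791 and in the littermates from 706 to 971, with a log2 ratio of -0.14 (SE 0.07, interval from -0.30 to 0.02, limma, adjusted p = 0.979). Camkk2 encodes the calcium-dependent kinase. Of its 4 probes, 3 lay between 96.1 and 145 and the fourth was detected on 1 array of 23. Probe 2 had a log2 ratio of 0.09 in Ts3Yah (SE 0.04, limma, adjusted p = 0.896), beside 0.05, -0.01 and 0.03 for the others, and -0.03 in Ms3Yah.

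The other genes of the pathway were taken as lists, with the brightest probe of each gene. At this level 6.41% of 18797 genes had an unadjusted p under 0.05 in Ts3Yah and 6.01% of 18919 in Ms3Yah. No gene of these lists passed adjustment in limma in either line. Among the partners of LKB1 and other upstream kinases, the median log2 ratio over 5 measured genes was -0.07 in Ts3Yah and -0.09 in Ms3Yah. Of these, Cab39 was at background (detected on 3 of 11 and 0 of 12 arrays), and Map3k7 had a log2 ratio of -0.00076 in Ts3Yah. Strada, the pseudokinase that activates LKB1, was at 132 ± 13.1 in Ts3Yah and 152 ± 10.9 in the littermates (limma, adjusted p = 0.853). In Ms3Yah, Map3k7, a kinase known to phosphorylate AMPK in cultured cells, was at 103 ± 3.76 and 110.0 ± 3.65 (limma, adjusted p = 0.890), and Cab39l, a scaffold of the LKB1 complex, at 263 ± 27.9 and 299.95 ± 31.7 (limma, adjusted p = 0.968). None of the 9 AMPK regulators, which include the sestrins and folliculin, reached an unadjusted p under 0.05 in either line. Of the 13 AMPK-related kinases, 0 did in Ts3Yah and 1 in Ms3Yah, Sik1, at 105 ± 4.37 and 115 ± 8.36 (limma, adjusted p = 0.885).

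Of the 19 measured AMPK substrates, 4 had an unadjusted p under 0.05 in Ts3Yah, all with lower values, and 3 in Ms3Yah, all with higher values. Of all genes, 6.41% and 6.01% did, in either direction. The counts were not tested against these shares and are a description. Acacb, the acetyl-CoA carboxylase that limits mitochondrial fat uptake in muscle, was at 1020.3 ± 88.0 in Ts3Yah and 1203 ± 71.2 in the littermates, 0.848-fold, with an adjusted p of 0.732 in limma. Pfkfb2, whose product sets the level of an activator of glycolysis, was at 155 ± 11.8 and 179 ± 22.4 (limma, adjusted p = 0.855), and Ulk1, a kinase that starts autophagy, at 438 ± 42.4 and 508 ± 69.1 (limma, adjusted p = 0.884). In Ms3Yah, Ppargc1a, the coactivator of mitochondrial biogenesis, was at 242 ± 31.8 and 191 ± 11.7 in the littermates, 1.26-fold, with an adjusted p of 0.509 in limma. Gys1, muscle glycogen synthase, was at 273 ± 58.0 and 206 ± 45.6 (limma, adjusted p = 0.927), and Crtc2, a coactivator of CREB, at 109 ± 3.79 and 102 ± 5.77 (limma, adjusted p = 0.949). The medians over the list were -0.03 and 0.01, with 13 of 19 genes below 0 in Ts3Yah and 9 of 19 in Ms3Yah. Among 4 genes of adenylate handling, Ampd1, the AMP deaminase of muscle that removes the AMPK activator AMP, was at 26882 ± 1733 in Ts3Yah and 24183 ± 1831 in the littermates, 1.11-fold (limma, adjusted p = 0.853).

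**Figure D5:**
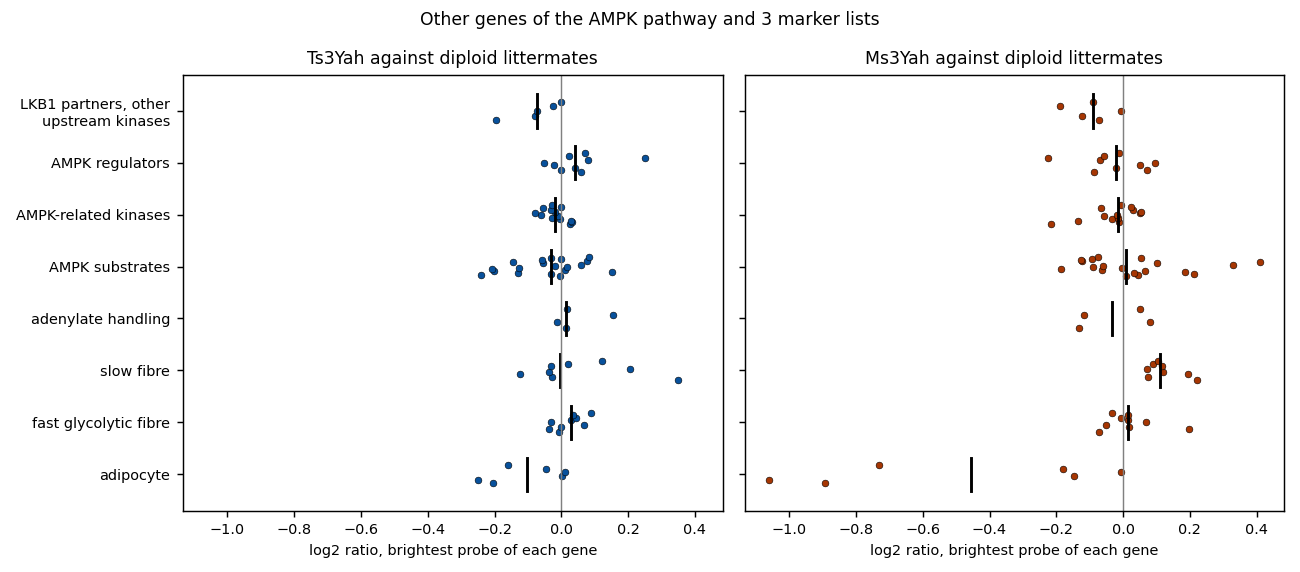
Log2 ratio to diploid littermates of the brightest probe of each gene in 5 lists of the AMPK pathway and 3 marker lists, with the list median as a black line, for Ts3Yah (left) and Ms3Yah (right). The medians of the pathway lists lie between -0.09 and 0.04, and that of the adipocyte markers in Ms3Yah at -0.46.

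No gene of the marker lists passed adjustment in limma in either line. All 8 slow fibre markers had a log2 ratio above 0 in Ms3Yah (median 0.11) and 4 of 8 in Ts3Yah, and none reached an unadjusted p under 0.05 in limma. All 6 adipocyte markers were below 0 in Ms3Yah, with a median of -0.46 and sums that overlapped widely (941 to 6231 in Ms3Yah and 1144 to 8312 in the littermates), and none reached that level either. Of the 5 fibroblast markers, 4 were above 0 in Ms3Yah (median 0.23), among them Col1a1, a collagen gene, at 1.55-fold (limma, adjusted p = 0.509). In Ts3Yah, 5 of 6 endothelial markers were below 0 (median -0.17), with 2 at an unadjusted p under 0.05, beside 6.41% of all genes. All 4 nerve and Schwann cell markers were below 0 as well (median -0.24, 1 at that level), of which S100b was detected on 1 of 11 arrays. Mb, the gene of myoglobin, was at 0.832-fold in Ts3Yah (limma, adjusted p = 0.802). The part of fibre type, fat and these other cell types in the Prkab2, Prkag3, Ppargc1a and other values was not tested beyond the correlations given.

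For Prkaa2, Prkab2 and Prkag3, the genes with the most similar pattern were sought among 11297 to 11298 probes detected on all arrays, by Pearson correlation over 23 arrays with each group centred. They are given as a description, since probes on 1 array share its RNA. The bright Prkaa2 probe was most like 5730455P16Rik (r = 0.85), Myom1 (0.80), a protein of the sarcomeric M-band, and Osbp (0.79), an oxysterol-binding protein. Prkab2 was most like Nek9 (0.81), a kinase of the mitotic spindle, Arf2 (0.80) and Gm14325 (0.79). Prkag3 was most like the transcription factor genes Zbtb18 (0.88) and Tbx15 (0.87) and Gdap1 (0.87), which encodes a mitochondrial outer membrane protein. Within the lines the correlations were 0.83 to 0.92 for Prkag3, 0.59 to 0.95 for Prkaa2 and 0.58 to 0.92 for Prkab2. The genes were picked on these same arrays, so the values within lines are no check on them.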

How the data were processed

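Total RNA of gastrocnemius muscle was extracted with Trizol and a column clean-up, made into biotinylated cDNA and hybridised to Illumina bead arrays. The deposited intensities are the non-normalized bead signals of each probe, and the deposited detection p-values accompany them. The authors also deposited a normalised value for each probe, on a linear scale with values below 0 (lowest -15.6, column medians 3.81 to 3.85). The steps behind it and its centring are not given in the sources used here, so it served as an alternative only. The authors set aside a diploid array of the Ts3Yah line as an outlier, and it was not analysed here.

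Signals were quantile-normalised over 23 arrays and log2-transformed, after the methods of the study. Probes above the 35th percentile (signal 89.8) on at least 1 array of a line were kept, and all 14 probes passed in both lines. Each line was compared with its own littermates with limma 3.58.1 in R 4.3.3, with Benjamini-Hochberg adjustment over all kept probes. The comparisons across lines were contrasts of a fit over the 4 groups. Bright and dim probes were compared by exact permutation over mice. A fold is the ratio of mean signals, and a log2 ratio is the difference of mean log2 signals. Bars and ± are SD. For arrays, the number of mice limits the precision.

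Gene names came from the annotation of the platform: 34885 probes had 1 gene, 18 several and 10378 none listed. Genes were named by a rule: every probe of the 9 genes, up to 3 genes per list with the smallest p, and the 3 genes most like Prkaa2, Prkab2 and Prkag3. List genes without a probe under their symbol were not analysed here. The members and lists were chosen with earlier results of these data known. Promoter windows came from RefSeq (GRCm38.p6), with 11 windows matched to the 9 genes by symbol. The fit was tested on simulated data. Alternatives were neqc, median scaling, the deposited normalised values, quantile normalisation within a line, other filters, the Xist class as a term, other fits and leaving out each mouse.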

Additional observations from a re-analysis of the deposited data

Results flagged for a closer look

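In 6 of 60 groups of a probe the highest or lowest mouse stood apart from the rest by Dixon's criterion, which chance alone meets in about 1 of 20 groups. For Prkag2 the diploid mouse 37145 of the Ms3Yah line read 102, where the next was 139. For the second Prkag3 probe the Ts3Yah mouse 34558 read 2069, where the next was 1446; the same mouse had the highest value on the brighter probe. The other 4 were on dim Camkk2 probes. The Ts3Yah mouse 34662 read 137 and the Ms3Yah mouse 37448 read 133 on probe 1, the diploid mouse 34723 of the Ts3Yah line read 108 on probe 2, and the Ms3Yah mouse 37039 read 104 on probe 4, where it was the only array of 23 on which that probe was detected.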

How the results depend on the processing

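No paired analysis was possible because mouse numbers are not shared between groups. The number of the 14 probes past adjustment was 0 in Ts3Yah, in Ms3Yah and between lines under every alternative run, leaving out each mouse included. At an unadjusted p under 0.05 the count in Ts3Yah (2) was 1 under median scaling, the deposited normalised values, the detection filter, the Xist term and the methods' test per probe, and 0 in the fit of 4 groups. In Ms3Yah (1) it was 3 under median scaling, 2 with the Xist term and in the fit of 4 groups, and 0 with the deposited values and the methods' test. Leaving out 1 mouse gave 1 to 3 in Ts3Yah, with 3 without diploid mouse 34731, and 0 to 4 in Ms3Yah, with 4 without diploid mouse 37094. The single probe past adjustment between the diploid mice was lost (0) under median scaling, with the deposited values and without any of 8 mice (0 to 1). The dim minus bright difference of Prkaa2 in Ts3Yah was 0.56 after neqc and 0.87 with the deposited values, past the threshold of the exact test, and 0.10 to 0.23 without 1 mouse. In Ms3Yah it was 0.13 to 0.33 and between diploid mice -0.99 to -0.79 without 1 mouse. The Prkag3 difference by Xist was 0.53 to 0.69 without 1 mouse and missed the threshold under median scaling (0.56). The cause was not tested.

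Near-zero log2 ratios turned sign, none of them past a threshold. Under median scaling Prkag3 probe 1 (-0.014) and Stk11 (-0.012) did in Ts3Yah, and Prkab1 (-0.017) and Prkag1 (-0.0054) in Ms3Yah. With the Xist term in Ts3Yah, Prkab2 was at 0.038, Stk11 at -0.0031 and Camkk2 probe 3 at 0.021. Without 1 mouse, the values in Ts3Yah ran from -0.11 to 0.13 for Prkag3 probe 1, -0.043 to 0.15 for its probe 2, -0.016 to 0.037 for Stk11, -0.037 to 0.020 for Camkk2 probe 3 and -0.014 to 0.069 for Prkaa1. In Ms3Yah they ran from -0.028 to 0.13 for the bright Prkaa2 probe, -0.017 to 0.026 for Prkab1 and -0.072 to 0.0029 for Camkk2 probe 2. The array chip as a block was not run, since no chip is named in the files, and quantile normalisation within a line gives no value across lines. Probes at background (Prkaa1 and 1 of Camkk2) limit what can be measured. Signals were also low for Prkag2, the other Camkk2 probes and the dim Prkaa2 probe. Among the list genes they were low for Map3k7, Sik1 and Crtc2, among others. The size of such ratios depends on the background: between Ts3Yah and Ms3Yah, Camkk2 probe 2 differed by 0.13, and by 0.36 after neqc.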
